A study of Mus musculus with 4 samples.

Results

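The genes described here are 37 genes of the lysosome, of its proton pump and of autophagy, chosen by name from 54115 annotated mouse genes. They comprise 9 acid hydrolases, 2 hydrolase cofactors, 6 membrane or sterol transport genes, 15 subunits or accessory proteins of the proton pump, 3 autophagy genes and 2 transcription factors. All 37 passed the filter on low counts. They were measured by RNA sequencing of whole snap-frozen tumours that grew from injected MC38 cells, a mouse colon adenocarcinoma line. The vanoxerine group had 2 libraries from tumours treated with vanoxerine, an inhibitor of dopamine reuptake, at 25 mg/kg in 10 daily intraperitoneal injections. The saline group had 2 libraries after 10 daily intraperitoneal injections of saline. No strain, age or sex of the host and no allele is named in the labels. The labels number the libraries and do not say that each came from its own mouse, so a p-value here reflects only how far these libraries differ, which could be technical variation.

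Lysosomes are acidic compartments in which hydrolases break down lipids, glycans and proteins taken up from outside or delivered by autophagy. The vacuolar ATPase acidifies them: its cytosolic V1 sector splits ATP, and its membrane V0 sector carries the protons. Some of these genes carry an E-box motif in their promoter that the MiT/TFE transcription factors, among them Tfeb and Tfe3, can bind. Macrophages are a cell type rich in lysosomes.

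Between 67289273 and 75748162 reads per library were assigned to transcripts. edgeR's quasi-likelihood test was run on 18758 genes, and genes with a Benjamini-Hochberg adjusted p below 0.05 were called. By this rule 36.9% of all genes tested were called, 21.0% higher and 15.9% lower in vanoxerine. With upper-quartile scaling the split was 2895 higher and 4525 lower, and on log2(TPM + 1) it was 4094 and 870. These scalings moved the median of all genes by -0.13 and 0.14 on the log2 scale. The tumours differed in their cell type markers. All 18 macrophage markers rose, and their summed level went from 1993 and 2069 CPM (read counts scaled to library size) with saline to 7157 and 7161 CPM with vanoxerine. Of 10 neutrophil markers 6 fell, and their sum went from 885 and 925 CPM to 511 and 503 CPM. Of 8 fibroblast markers 7 fell and 1 rose, with sums of 718 and 734 CPM against 549.6 and 553 CPM. Of 8 endothelial markers 6 fell and 1 rose, while their sum was 146 and 143 CPM with saline and 139.5 and 142.5 CPM with vanoxerine. Of 8 T cell markers 3 fell, 1 rose and 4 were not called, with sums of 512 and 528 CPM against 463 and 437 CPM. The defining markers of colon epithelium were nearly absent: 8 such genes summed to 16.9 and 19.7 CPM in saline, against 35.6 and 37.2 CPM in vanoxerine, and Cdx2 had no read in any library. Of the 6 of them tested, 3 rose, 0 fell and 3 were not called, with a median log2 fold change of 0.85. In bulk tumour RNA, more cells of a type and more RNA per cell cannot be told apart.

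Across the 37 genes, 28 were called higher in vanoxerine, 4 lower and 5 were not called. Their median log2 fold change was 0.46, beside -0.01 over all genes tested. The levels of the 2 groups did not overlap for 34 of the 37, with vanoxerine higher in 28 and lower in 6. Over all genes tested, 70.7% had groups that did not overlap, 35.8% with vanoxerine higher and 34.9% with vanoxerine lower. The division by role was uneven. Of the 9 acid hydrolases 8 rose, with a median of 0.64 over all 9. Of the 15 pump genes 11 rose, with a median of 0.24 over all 15, and none of the 3 autophagy genes was called higher. Without vanoxerine replicate 1 or 2 the median log2 fold change of the 37 genes was 0.46 or 0.48. Fewer of the 37 were called then, as were fewer of all genes tested. The authors' deposited table has, among the 37, 23 higher and 3 lower, with 31 calls the same as here. The share that macrophage content took in these differences was not tested.

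**Figure D1:**
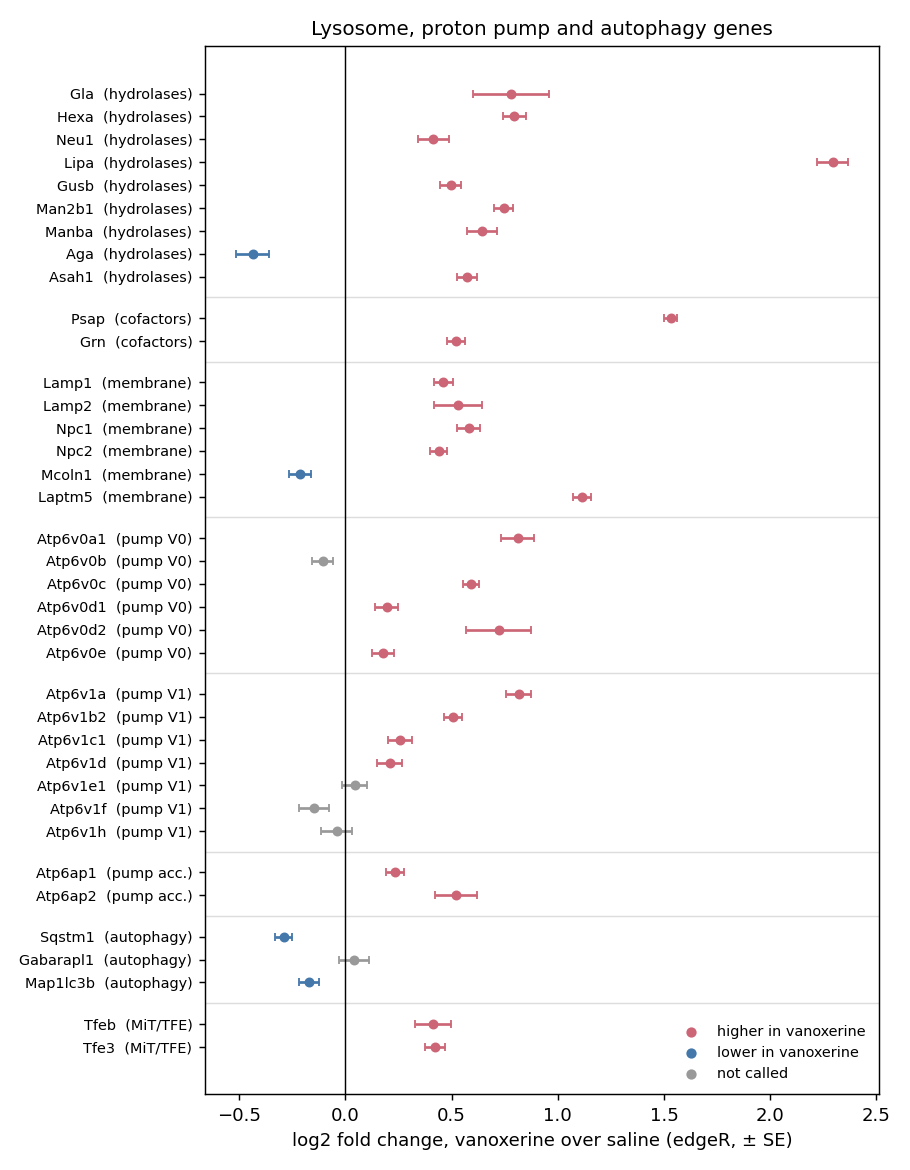
Log2 fold change of each of the 37 genes, vanoxerine over saline (edgeR, x axis), with bars of 1 SE, grouped by role and coloured by call. Lipa at 2.30 and Psap at 1.53 stand farthest to the right, and Aga at -0.44 lies farthest to the left.

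Among the hydrolases the lipid-degrading enzyme Lipa, lysosomal acid lipase, changed most. Lipa (chr19:34492318-34527474, minus strand, GRCm38) stood at 53.8 and 47.2 CPM after saline and reached 246.9 and 249.3 CPM after vanoxerine. The vanoxerine libraries were nearly alike and lay far above both saline libraries. The change was 4.91-fold, a log2 fold change of 2.30 ± 0.07 (SE; edgeR adjusted p = 1.73e-05). The authors' deposited table gives 2.31 for Lipa.

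The enzymes of glycolipid and glycoprotein breakdown rose less. Hexa, the alpha subunit of beta-hexosaminidase, which degrades GM2 ganglioside, went from 139.5 and 150.8 CPM to 250.9 and 253.1 CPM. Both vanoxerine libraries were above both saline libraries, by 0.80 ± 0.05 on the log2 scale (edgeR adjusted p = 0.000181). Man2b1, the lysosomal alpha-mannosidase, went from 152 and 157 CPM to 261 and 257 CPM, a log2 fold change of 0.75. Manba, the beta-mannosidase, had a log2 fold change of 0.64, Asah1, the acid ceramidase, of 0.57, and Gusb, the beta-glucuronidase, of 0.50. Neu1, the lysosomal sialidase, went from 53.5 and 61.3 CPM to 75.2 and 77.7 CPM and had the smallest rise among the hydrolases, 0.41 ± 0.07 (edgeR adjusted p = 0.00775). Its call was lost without vanoxerine replicate 2, at an adjusted p of 0.0738, and that of Asah1 was lost when transcripts not annotated as protein coding were left out, at 0.0884.

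Aga and Gla stood apart from the other hydrolases. Aga, which cleaves the bond between asparagine and a glycan, was the hydrolase that fell: 52.8 and 46.2 CPM in saline against 36.6 and 36.6 CPM in vanoxerine. The groups did not overlap, and the log2 fold change was -0.44 ± 0.08 (edgeR adjusted p = 0.00796). Without vanoxerine replicate 1 or 2 the adjusted p was 0.0686 or 0.0731, and on log2(TPM + 1) it was 0.182. Gla, the alpha-galactosidase that degrades globotriaosylceramide, varied most between the saline libraries, at 40.9 and 27.4 CPM, against 56.4 and 60.9 CPM in vanoxerine. Both vanoxerine libraries were above both saline libraries, and the log2 fold change was 0.78 ± 0.18 (edgeR adjusted p = 0.0181). A short Gla transcript of 337 bases was assigned 0% and 65.4% of the gene's TPM in saline replicates 1 and 2, against 0% and 33.2% in vanoxerine replicates 1 and 2. With an offset for average transcript length the log2 fold change of Gla was 0.35, with an adjusted p of 0.534, without vanoxerine replicate 2 the adjusted p was 0.0686, and the authors' deposited table gives 0.19, not called.

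Psap and Grn encode secreted and lysosomal proteins that assist hydrolases. Psap, the precursor of the saposins that present sphingolipids to hydrolases, had the highest level of all 37 genes after vanoxerine. It went from 1380 and 1409 CPM to 4059 and 4008 CPM (chr10:60277627-60302597, plus strand, GRCm38). This was a 2.89-fold difference, 1.53 ± 0.03 on the log2 scale (edgeR adjusted p = 6.85e-06), with replicates of each group close together. Per length, in TPM (a share of the library's transcripts, corrected for their length), Psap averaged 448.9 in saline, below Sqstm1 at 783.0, and 1538 in vanoxerine, above every other gene of the 37. Grn, the granulin precursor, rose from 1002 and 1059 CPM to 1497 and 1458 CPM, a log2 fold change of 0.52.

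While 21.0% of all genes tested were called higher and 15.9% lower, the calls among lysosomal genes were divided otherwise. Of 25 other lysosomal hydrolases and cofactors, 21 were called higher, 3 lower and 1 was not called, with a median log2 fold change of 0.53. Among the higher calls with the smallest p were Gm2a, the GM2 activator that works with hexosaminidase, and Hgsnat, an acetyltransferase of heparan sulfate breakdown. They were 2.46-fold and 2.36-fold higher. The 3 that fell were Gaa, the acid alpha-glucosidase of glycogen breakdown, at -0.41, Arsa, the arylsulfatase that degrades sulfatide, at -0.29, and Scpep1, a serine carboxypeptidase, at -0.22. Without vanoxerine replicate 1 the counts were 13 higher and 1 lower, and without vanoxerine replicate 2 they were 14 and 1.

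**Figure D2:**
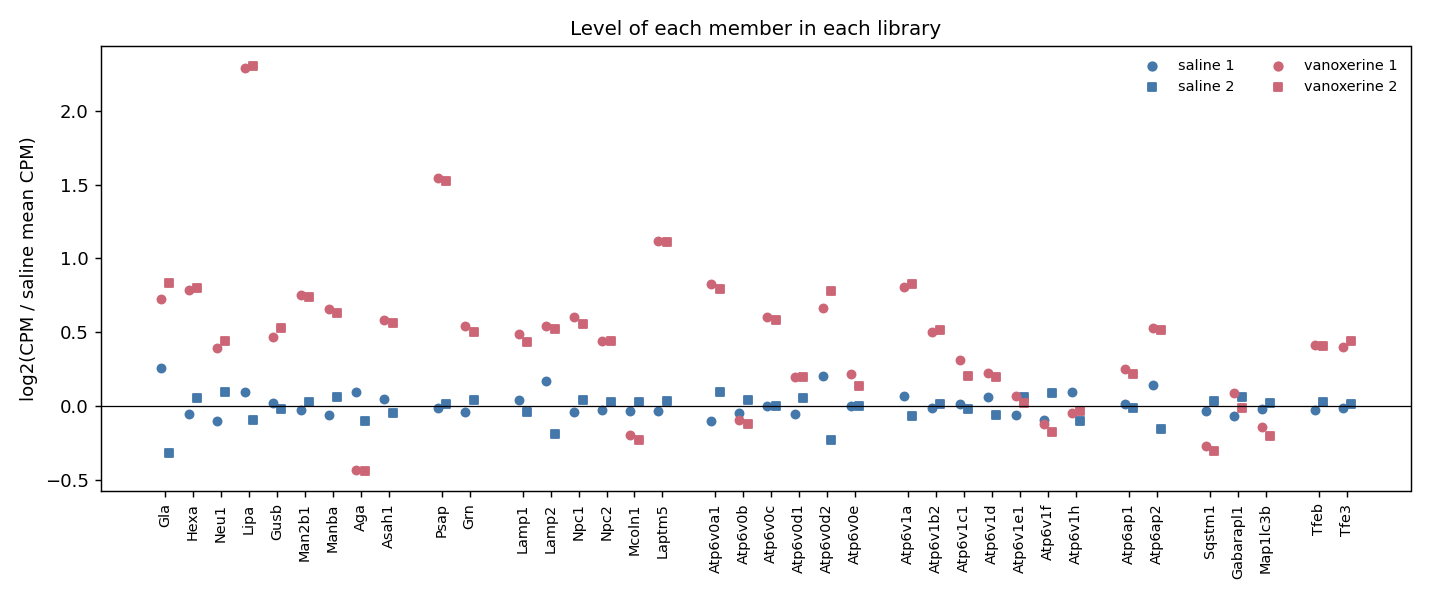
Level of each of the 37 genes in each library, as log2 of its CPM over the mean CPM of the saline libraries (y axis), circles for replicate 1 and squares for replicate 2. The vanoxerine points of Lipa, Psap and Laptm5 lie well above the saline points, and the saline points of Gla, Atp6v0d2, Lamp2 and Atp6ap2 are spread widest.

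The membrane and sterol transport genes rose with 1 exception, 5 higher and 1 lower of 6, with a median of 0.50. Laptm5, a lysosomal membrane protein of blood cells, changed most, from 373 and 390 CPM to 829 and 823 CPM. Both vanoxerine libraries lay far above both saline libraries, 2.17-fold on average, with a log2 fold change of 1.12 ± 0.04 (edgeR adjusted p = 2.81e-05). Lamp1, an abundant glycoprotein of the lysosomal membrane, rose by 0.46, from 602 and 569 CPM to 821 and 791 CPM. Lamp2, its relative with a role in the fusion of autophagosomes, was at 281 and 219 CPM in saline, against 364 and 359 CPM in vanoxerine. Its saline libraries differed by more than its vanoxerine libraries but stayed below them, and the log2 fold change was 0.53 ± 0.11 (edgeR adjusted p = 0.0134).

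Npc1 and Npc2, which pass cholesterol out of the lysosome one after the other, both rose. Npc1, the membrane transporter, went from 73.9 and 78.2 CPM to 115.5 and 111.9 CPM, and Npc2, its soluble partner in the lumen, from 539 and 557 CPM to 743 and 744 CPM. The groups did not overlap for either gene, and the log2 fold changes were 0.58 and 0.44. Mcoln1, the calcium channel TRPML1 of the lysosomal membrane, was the one that fell, from 66.4 and 69.3 CPM to 59.3 and 57.9 CPM. Its log2 fold change was -0.21 ± 0.05 (edgeR adjusted p = 0.0226), but 0.07 on log2(TPM + 1), where the median of all genes was itself 0.13. Without vanoxerine replicate 1 or 2 the adjusted p of Mcoln1 was 0.214 or 0.325, and with the transcript length offset it was 0.339.

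Over all genes tested, the shares called were 21.0% higher and 15.9% lower. Of 18 other lysosomal membrane proteins, 13 were called higher, 3 lower and 2 were not called. The higher calls with the smallest p were Slc29a3, a nucleoside transporter, at a log2 fold change of 1.17, Mfsd1 at 0.69 and Tpcn2, a cation channel, at 1.27. Those that fell were Laptm4b at -0.41, Tmem192 at -0.31 and the tetraspanin Cd63 at -0.19. Without vanoxerine replicate 1 the counts were 7 higher and 1 lower, and without vanoxerine replicate 2 they were 6 and 0.

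Of the 15 proton pump genes 11 were called higher, 0 lower and 4 were not called, and of all genes 21.0% were called higher. edgeR also placed 0 of them lower at an unadjusted p under 0.05, and DESeq2 and limma-voom called 0 lower. With upper-quartile scaling 6 were higher and 2 lower, without vanoxerine replicate 1 or 2 the higher calls were 6 or 5, and without saline replicate 1 or 2 the lower calls were 2 or 1.

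In the membrane sector V0, 5 of 6 subunits rose. Atp6v0a1, the a subunit through which protons enter and leave, went from 35.1 and 40.3 CPM to 66.9 and 65.3 CPM, a log2 fold change of 0.81 ± 0.08 (edgeR adjusted p = 0.000698). Atp6v0c, the proteolipid of the rotating ring, went from 363 and 363 CPM to 551 and 544 CPM, with a log2 fold change of 0.59. The groups were well separated for both. Atp6v0b, a second proteolipid of the same ring, did not follow: it was at 206 and 219 CPM in saline, against 199 and 195 CPM in vanoxerine, with a log2 fold change of -0.11 ± 0.05 (edgeR adjusted p = 0.147), and of 0.12 on log2(TPM + 1). The log2 fold changes of Atp6v0d1 and Atp6v0e were 0.19 and 0.18, with edgeR adjusted p of 0.0357 and 0.0382. Both calls were lost in 8 of 15 alternative analyses, the omission of either vanoxerine library among them.

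Atp6v0d2 is the form of the d subunit known from osteoclasts and fusing macrophages. It was at 15 and 11.1 CPM in saline, against 20.7 and 22.4 CPM in vanoxerine, both vanoxerine libraries above both saline libraries (log2 fold change 0.72 ± 0.15, edgeR adjusted p = 0.0141). Per length the order differed: Atp6v0d2 stood at 14.1 and 4.15 TPM in saline, against 11.6 and 9.90 TPM in vanoxerine, so that the groups overlapped. With the transcript length offset the log2 fold change was 0.02, without vanoxerine replicate 2 the adjusted p was 0.0785, and the authors' deposited table gives an adjusted p of 0.991. Of 8 osteoclast markers 7 were tested, of which 5 were called higher and 2 were not called. Over all genes tested 21.0% were called higher. Among the 5 were Acp5, from 26.0 and 29.8 CPM to 95.0 and 94.4 CPM, Ctsk, from 10.4 and 10.0 CPM to 57.8 and 59.5 CPM, and Itgb3.

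In the catalytic sector V1, 4 of 7 subunits were called higher. Atp6v1a, which holds the site of ATP hydrolysis, went from 137 and 125 CPM to 229 and 233 CPM, and its log2 fold change of 0.82 ± 0.06 was the highest of the 15 (edgeR adjusted p = 0.000231). Atp6v1b2, its partner in the hexameric head, rose by 0.51, from 211 and 215 CPM to 301 and 304 CPM. The subunits of the stalks had smaller values. Atp6v1c1 had a log2 fold change of 0.26 and Atp6v1d of 0.21, and both calls were lost without vanoxerine replicate 1 or 2. Atp6v1e1, at 0.05, Atp6v1f, at -0.15, and Atp6v1h, at -0.04, had edgeR adjusted p of 0.600, 0.156 and 0.714. The libraries of the 2 groups overlapped for Atp6v1e1 and Atp6v1h.

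The accessory proteins were both called higher. Atp6ap2, also known as the prorenin receptor, was at 150 and 122 CPM in saline, against 197 and 195 CPM in vanoxerine, a log2 fold change of 0.52 ± 0.10 (edgeR adjusted p = 0.00875). Atp6ap1 rose by 0.24 from a narrow saline range of 214 and 211 CPM to 253 and 247 CPM. This call was lost without vanoxerine replicate 1 or 2, at 0.133 or 0.0853.

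Set side by side per length, the pump genes spanned a wide range of levels. Atp6v0c, of which the ring holds several copies, was at 295 and 285 TPM in saline, against 526 and 514 TPM in vanoxerine. Atp6v0b had the other high level, 286 and 316 TPM in saline, and did not differ from Atp6v0c beyond the spread of the saline libraries. In vanoxerine it stood at 335 and 318 TPM, below Atp6v0c in both libraries. The lowest levels were those of Atp6v0a1, at 9.81 and 10.5 TPM in saline, against 21.8 and 18.8 TPM in vanoxerine, and of Atp6v0d2.

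**Figure D3:**
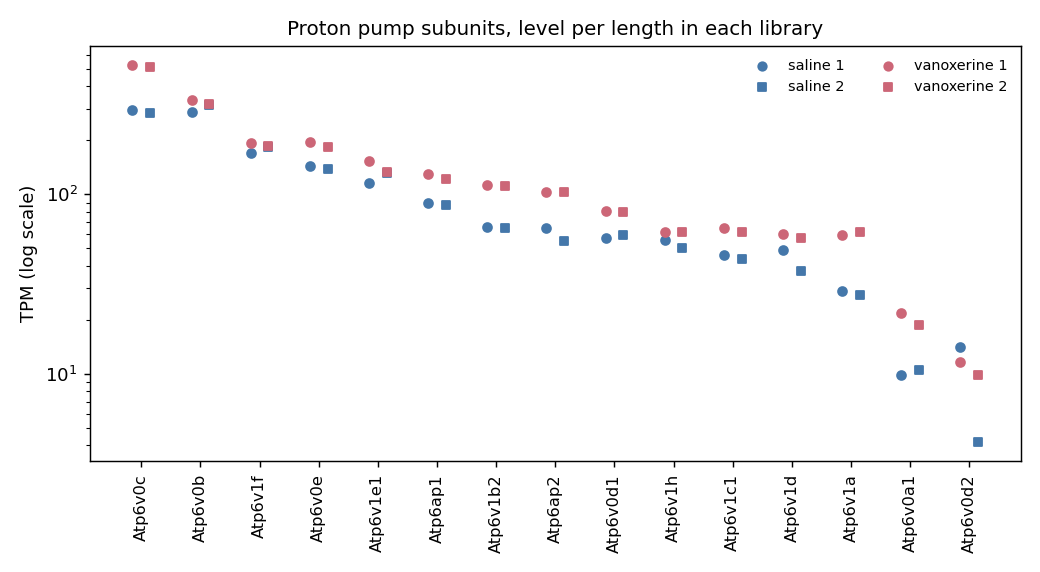
Level per length of the 15 proton pump genes in each library, in TPM on a log axis, ordered by mean level, circles for replicate 1 and squares for replicate 2. Atp6v0c reaches 526 and 514 TPM in the vanoxerine libraries, and the libraries of Atp6v0d2 range from 4.15 to 14.1 TPM with the groups interleaved.

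Among 10 other pump subunits, 7 passed the low-count filter, and Atp6v0a2, another form of the a subunit, was called higher with a log2 fold change of 0.50. No other was called, including Tcirg1, the a subunit known from osteoclasts, at 324 and 339 CPM in saline, against 350 and 349 CPM in vanoxerine (log2 fold change 0.08 ± 0.04, edgeR adjusted p = 0.230). Atp6v1g1 was at 138 and 119 CPM in saline, against 115 and 125 CPM in vanoxerine, and the groups overlapped. Atp6v0a4, Atp6v0e2 and Atp6v1b1 stayed below 1 CPM in every library, so the lack of a call says little for them. Tcirg1 and these genes were chosen for mention after their values were seen. Without saline replicate 1 or 2 the higher calls of this list were 2, and without saline replicate 2 there was 1 lower call.

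The 3 autophagy genes did not share the rise of the hydrolases. Sqstm1, the cargo adaptor p62, fell from 1029 and 1074 CPM to 870 and 850 CPM. Both vanoxerine libraries lay below both saline libraries, and the log2 fold change was -0.29 ± 0.04 (edgeR adjusted p = 0.00268). The call was lost without vanoxerine replicate 2, at 0.0622, and on log2(TPM + 1), at 0.115. Map1lc3b, the Atg8 protein LC3B that is attached to autophagosome membranes, was at 157 and 162 CPM in saline, against 144 and 139 CPM in vanoxerine. Its log2 fold change was -0.17 ± 0.05 (edgeR adjusted p = 0.0366), or 0.02 on log2(TPM + 1), and the call was lost in 6 of 15 alternatives, among them the omission of vanoxerine replicate 1 or 2, at 0.247 or 0.423. Map1lc3b shares its strand and locus with the gene model Gm20388, which was at 54.1 and 51.3 CPM in saline, against 64.1 and 80.8 CPM in vanoxerine, and Salmon divided reads common to both by estimate. Gabarapl1, an Atg8 protein of another branch, was at 46.4 and 50.6 CPM in saline, against 51.6 and 48.1 CPM in vanoxerine. The groups overlapped for Gabarapl1, at 0.04 ± 0.07 (edgeR adjusted p = 0.710). edgeR called 0 of these 3 higher, 0 at an unadjusted p under 0.05, and DESeq2 and limma-voom called 0 higher. All 3 methods used the same 4 libraries. Over all genes tested 21.0% were called higher, and 3 genes are too few to set their share apart from that.

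A wider list of 34 autophagy genes gave 9 higher calls, 3 lower calls and 22 without a call, with a median log2 fold change of 0.11. The share called higher, 9 of 34, stands beside 21.0% of all genes tested. The 3 higher calls with the smallest p were Uvrag, a subunit of a phosphatidylinositol kinase complex, at 0.57, Rb1cc1, the scaffold FIP200 of the initiating kinase complex, at 0.53, and the kinase Ulk2 at 0.64. The 3 lower calls were Map1lc3a, another LC3 gene, at -0.80, Wipi2, which binds phosphoinositide on the forming membrane, at -0.35, and the lipid scramblase Atg9a at -0.19. The count of higher calls depended on the libraries used: it was 13 and 17 without saline replicate 1 and 2, and 4 and 3 without vanoxerine replicate 1 and 2. The lower calls numbered 5 and 4 without saline replicate 1 and 2, and 1 with either vanoxerine library left out.

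**Figure D4:**
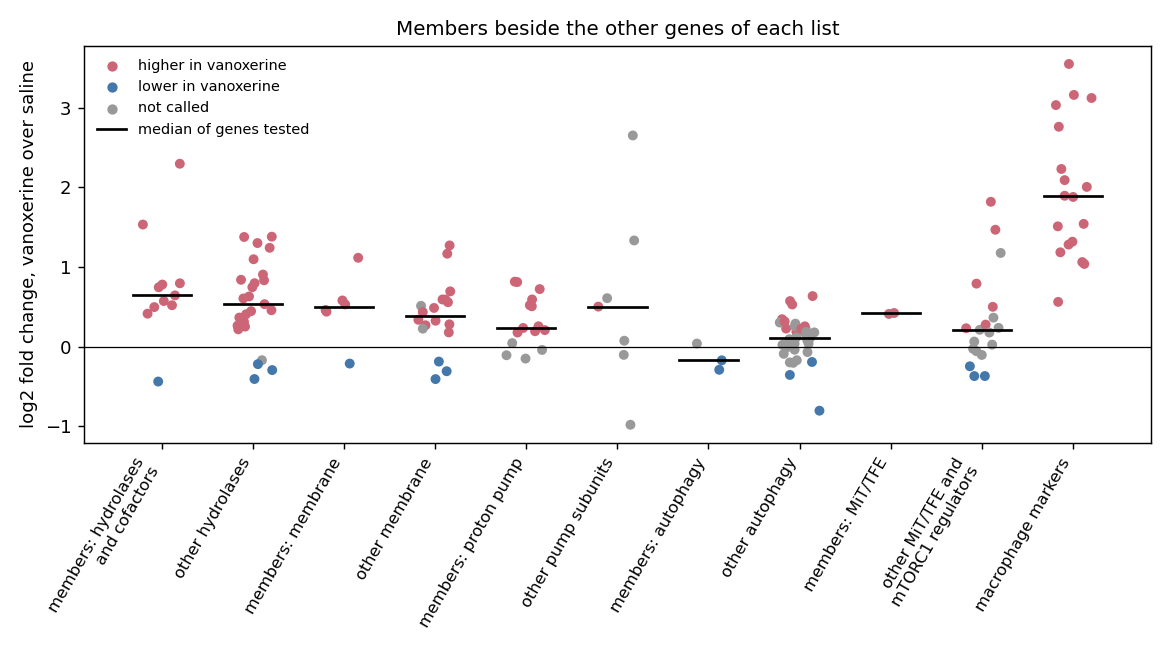
Log2 fold change of every gene tested in each list (y axis), with the 37 genes by role beside the other genes of the same role and the macrophage markers, coloured by call, the black line being the median. Hydrolases have medians of 0.64 (with Psap and Grn) and 0.53 (others), the 3 autophagy genes of -0.17, and the macrophage markers of 1.89.

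The transcription factor genes Tfeb and Tfe3 were both called higher, by similar amounts. Tfe3 went from 64.8 and 65.8 CPM to 86.3 and 88.8 CPM, 0.42 ± 0.05 on the log2 scale (edgeR adjusted p = 0.00135). Tfeb was low, at 14.2 and 14.7 CPM in saline, against 19.3 and 19.1 CPM in vanoxerine, 0.41 ± 0.08 (edgeR adjusted p = 0.0124). The groups of both were apart, with replicates close together. The Tfeb call was lost with the transcript length offset (edgeR adjusted p = 0.195) and on log2(TPM + 1) (limma-trend adjusted p = 0.103). It was also lost without vanoxerine replicate 1 or 2, with log2 fold changes of 0.42 or 0.43. The authors' deposited table does not call Tfeb, at a DESeq2 adjusted p of 0.133. These factors are regulated largely by where they sit in the cell, which an RNA level does not report. Shares over all genes tested were 21.0% called higher and 15.9% lower. The 19 other MiT/TFE factors and regulators at the lysosomal surface had 6 higher and 3 lower calls, and 10 were not called. Those higher with the smallest p were Tfec, a family member of macrophages, from 3.86 and 3.42 CPM to 13.3 and 12.4 CPM, Fnip2, a partner of folliculin, at 0.79, and the GTPase Rragc at 0.50. The 3 that fell were the GTPase Rraga at -0.37 and the Ragulator subunits Lamtor2 and Lamtor4 at -0.25 and -0.37. With either vanoxerine library left out the counts of this list were 4 higher and 0 lower, and without saline replicate 1 they were 9 and 3.

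The E-box that Tfeb and Tfe3 can bind was looked up in RefSeq promoter windows (GRCm38.p6, 250 bases before to 50 after a start site), which matched 30 of the 37 genes. The letters CACGTG, which read alike on both strands, lay in the windows of 7 of 30 genes and in 8.09% of 27025 genes. The longer TCACGTGA, also alike on both strands and containing CACGTG, lay in 5 of the 30 and in 1.12% of all genes. A form of 10 bases, which extends TCACGTGA on both sides, was also searched and lay in 0 of the 30 and in 0.37% of all genes. The stretches below show CACGTG with its surroundings in genes that rose and in Mcoln1, which fell. They run 5′ to 3′ in the direction of the gene, and capitals mark CACGTG.
Lamp1 (chr8:13159075-13159176, plus strand): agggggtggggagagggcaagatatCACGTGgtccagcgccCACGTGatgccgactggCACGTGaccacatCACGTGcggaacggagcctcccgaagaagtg
Gla (chrX:134601169-134601255, minus strand): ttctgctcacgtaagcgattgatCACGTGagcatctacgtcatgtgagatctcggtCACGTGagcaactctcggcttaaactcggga
Mcoln1 (chr8:3500423-3500504, plus strand): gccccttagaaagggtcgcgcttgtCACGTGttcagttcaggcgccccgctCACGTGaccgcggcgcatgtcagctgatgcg
Atp6v1a (chr16:44139360-44139415, minus strand): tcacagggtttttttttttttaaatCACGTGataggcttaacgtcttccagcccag
Atp6v0d1 (chr8:105566037-105566092, minus strand): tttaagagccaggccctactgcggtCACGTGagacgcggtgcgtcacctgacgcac

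Lamp1 held 4 copies of the motif in this stretch, Gla and Mcoln1 held 2 each, and Atp6v1a and Atp6v0d1 held 1 each. The other windows with the motif were those of Atp6v0b, with 2 copies, and Atp6v0e, with 1. The 7 genes with the motif had a median log2 fold change of 0.19, with 5 called higher, 1 lower and 1 not called. The 23 without it had a median of 0.50, with 18 higher, 2 lower and 3 not called. Among the 7, Atp6v0b, Atp6v0d1, Atp6v0e and Atp6v1a are pump genes, and the 15 pump genes had a median of 0.24. Motif and role therefore cannot be told apart here. Lipa and Psap, the members with the largest changes, had no CACGTG in their windows. GAGGAAGT, a form of the Ets motif that PU.1 can bind, searched on both strands, lay in the windows of Gla and Gusb and in 3.69% of all genes.

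Many of these genes were measured as mixtures of transcripts, and some of the mixtures shifted. A transcript was counted if it held over 10% of its gene's TPM in any library. By this rule 23 of the 37 genes had more than 1 transcript, which gave 62 transcripts. For 29 of these, in 15 genes, the shares of the groups did not overlap. Over all genes with more than 1 such transcript, 37.4% of transcripts had shares that did not overlap. Some transcripts passed the rule only in the group where they were high, among them Gusb-202 in saline and Atp6v0b-207 in vanoxerine. Grn-201, the main protein-coding transcript of Grn, went from 75.6% and 75.2% of the gene's TPM to 84.5% and 83.2%. Laptm5-201 was assigned 0% in both saline libraries, against 10.3% and 13.2% with vanoxerine. Laptm5 therefore counted here through its vanoxerine libraries alone. Lamp2-201 went from 49.8% and 55.1% to 46.9% and 47.9%, while Lamp2-202 went the other way, from 49.7% and 44.3% to 52.3% and 51.3%. For both Lamp2 transcripts the gap between the groups was smaller than the spread of the saline libraries.

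Transcripts annotated as retaining an intron held over 10% of the TPM, in at least 1 library, in 9 of the 37 genes. In 5 of these the share was lower in both vanoxerine libraries than in both saline libraries, in 1 it was higher, and in 3 the groups overlapped. Over all genes with such a share, 23.2% had a lower share without overlap. In Npc1 retained-intron transcripts held 70.6% and 72.8% of the TPM in saline, against 59.9% and 57.2% in vanoxerine. In Npc2 the shares were 53.4% and 57.3% against 47.3% and 44.7%, and in Asah1 56.6% and 55.7% against 49.9% and 48.3%. The protein-coding share of Asah1 was lower as well, at 12.8% and 11.8% in saline against 11.1% and 8.51% in vanoxerine. Asah1-202, annotated for nonsense-mediated decay, went from 30.6% and 32.5% to 39.0% and 43.2%. Neu1 and Atp6v0b were the other genes with a lower retained-intron share. Mcoln1 went the other way, from 35.6% and 43.5% to 49.2% and 52.0%. Atp6v0b passed 10% in saline alone, at 13.3% and 11.6% against 4.67% and 4.67% in vanoxerine. It thus entered only through the group where its share was high. Tfeb, whose groups overlapped, passed 10% in saline replicate 1 alone, at 31.9%. Across each whole library the share of reads in such transcripts was 5.84% and 6.03% in saline, against 5.30% and 5.25% in vanoxerine, and its part in the shifts of these genes was not tested. With protein-coding transcripts alone, an alternative chosen after seeing the data, the log2 fold change was 0.86 for Npc1, 0.63 for Npc2 and 0.67 for Neu1, and 0.33 for Asah1.

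**Figure D5:**
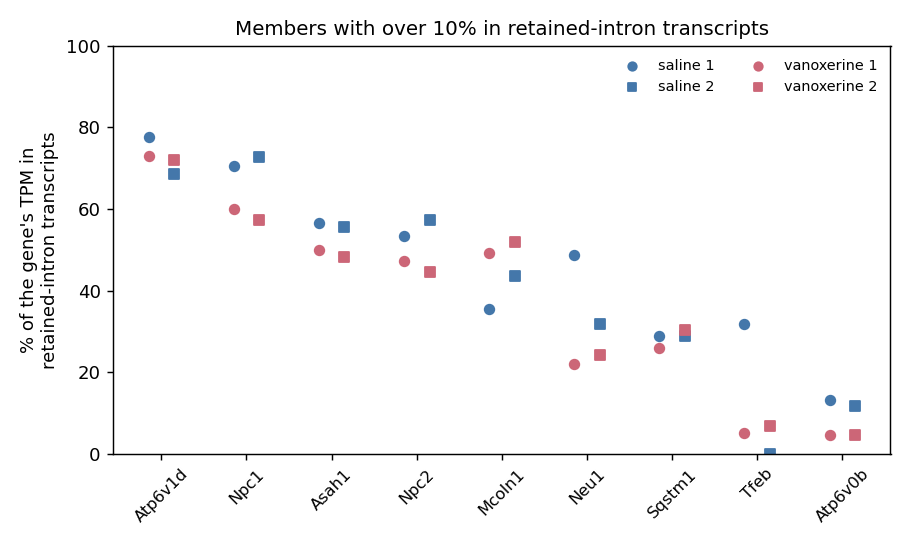
Share of each gene's TPM in transcripts annotated as retaining an intron (y axis, percent) for the 9 genes in which it passed 10% in any library. Circles mark replicate 1 and squares replicate 2. Vanoxerine points lie below saline points for Npc1, Asah1, Npc2, Neu1 and Atp6v0b and above them for Mcoln1.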

How the data were processed

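The authors deposited, for each library, Salmon's estimated count and TPM per transcript, per the file headers, and a table of their comparison with a log2 fold change, its standard error and an adjusted p-value. fastp, Salmon 1.3.0, DESeq2 and the build GRCm38 are named in the submitters' processing notes. Not given in the sources used here are the annotation, the strand setting and which libraries entered the deposited table. Another 4 columns of per-library FPKM values match no sample and were not used.

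Transcript counts were added up per gene (GENCODE M21, 139791 of 140992 transcripts, 99.56% to 99.63% of reads) and rounded. Genes passed edgeR's low-count filter (minimum count 10, minimum total 15). edgeR 4.0.16 under R 4.3.3 was run with TMM factors and the quasi-likelihood test, with Benjamini-Hochberg adjustment over all 18758 genes and no block. CPM uses the TMM-scaled library size, and TPM serves to compare genes with each other. SE is the log2 fold change over the square root of F. The script was tested on simulated data. Alternatives are in the closing section, with DESeq2 1.42.0 and limma 3.58.1. The members and lists were chosen with earlier results of these data known. Every member is named, and from each other list up to 3 genes per direction with the smallest p; 1 gene that this rule takes is not reported here. Without strand in the counting, reads of Map1lc3b and Zcchc14, Npc1 and Rmc1, and Sqstm1 and Mrnip, which overlap on opposite strands, cannot be told apart.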

Additional observations from a re-analysis of the deposited data

How the results depend on the processing

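Of the 32 genes called, 18, all higher, kept their call and direction in each of 15 alternatives, and none of the 4 lower calls did. With upper-quartile factors the pump had 6 higher and 2 lower calls, the other autophagy genes 4 and 6 (median -0.020), and the other MiT/TFE genes and regulators 5 lower. With library totals alone the other autophagy genes had 5 higher calls. Without the low-count filter 1 of the 3 autophagy genes was lower. With the transcript length offset the lower calls were 2 for all 37 genes, 1 for the autophagy genes and 1 for other membrane genes, and the higher calls were 7 for the pump, 8 for other membrane genes and 3 for other autophagy genes. With protein-coding transcripts only, chosen after seeing the data, the pump had 7 higher calls and the other autophagy genes 3. On log2(TPM + 1) with limma-trend 0 were lower among all 37 genes, acid hydrolases, autophagy genes, other hydrolases, other membrane genes and other MiT/TFE genes, 1 of the other autophagy genes was lower, and 1 autophagy gene was higher (median 0.019). An adjusted p under 0.1 gave the same counts for the 37 genes.

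Leaving out each library in turn gave 19 to 29 higher and 0 to 6 lower calls for all 37 genes, 6 to 8 and 0 to 1 for acid hydrolases, 5 to 12 and 0 to 2 for the pump, and 0 to 2 lower for the autophagy genes. For other hydrolases it gave 13 to 21 higher and 1 to 3 lower, for other pump genes 1 to 2 and 0 to 1, for other membrane genes 6 to 15 and 0 to 3, for other autophagy genes 3 to 17 and 1 to 5, and for other MiT/TFE genes and regulators 4 to 9 and 0 to 4. In these fits the group with 1 library takes its spread from the other one. Calls over all genes tested also fell with either vanoxerine library left out and rose with either saline library left out. A call lost in such a fit is therefore not particular to these genes.

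The sign turned on log2(TPM + 1) for Mcoln1 (0.067), Atp6v0b (0.12), Atp6v1f (0.10), Atp6v1h (0.23) and Map1lc3b (0.019). It also turned for Atp6v1h without saline replicate 1 (0.063; the range over libraries left out was -0.13 to 0.063), for Atp6v1e1 with upper-quartile factors (-0.089), library totals (-0.00097), the length offset (-0.024), protein-coding transcripts (-0.0091) and without saline replicate 1 (-0.016), and for Gabarapl1 with upper-quartile factors (-0.095), library totals (-0.0065), a mean CPM of at least 1 (-0.0014), protein-coding transcripts (-0.013), without saline replicate 1 (-0.023) and without vanoxerine replicate 1 (-0.00059). The median of all genes tested was 0.13 on log2(TPM + 1) and -0.14 with upper-quartile factors, beside -0.01 in the main fit. The causes were not tested.

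The labels do not say whether replicate numbers pair the libraries. The deviations of same-numbered libraries from their group means correlated at -0.048 across 9871 genes. With 2 libraries per group this single value cannot decide whether they are paired. With the replicate block 26 of the 37 genes were higher and 3 lower, with 9 higher in the pump, 1 lower among the 3 autophagy genes and 5 higher among other autophagy genes. Only 2 libraries per group limit the precision of every SE here, and Tfeb and Atp6v0d2 had the fewest reads of the 37 genes, 4721 and 4846 over the 4 libraries.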

Other observations

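The saline libraries differed most from each other for Gla, Atp6v0d2, Lamp2 and Atp6ap2. The level in saline replicate 1 over that in saline replicate 2 was 1.49 for Gla, 1.35 for Atp6v0d2, 1.28 for Lamp2 and 1.23 for Atp6ap2. Gla, Lamp2 and Atp6ap2 are on chromosome X, and Atp6v0d2 is on chromosome 4. The same ratio between the vanoxerine libraries was 0.926 for Gla, 0.923 for Atp6v0d2, 1.01 for Lamp2 and 1.01 for Atp6ap2. Tfe3 and Atp6ap1, also on chromosome X, were at 64.8 and 65.8 CPM and at 214 and 211 CPM in the saline libraries.

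TCACGTGA was also looked up in the promoter windows of the other lists. It lay in those of Clcn7, the chloride and proton exchanger of lysosomes, Cln3 and Mfsd1 among 15 other membrane genes with a window, of Atg3 among 27 other autophagy genes, and in none of 18 other hydrolases, 8 other pump genes and 18 other MiT/TFE genes and regulators.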
